A study of Mus musculus with 16 samples.

Results

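The genes described here encode the proteins of the cytosolic ribosome and were followed in C2C12, a mouse myoblast line that fuses into myotubes in culture. Members were the genes whose symbol begins with Rpl or Rps followed by a number (with the P stalk genes Rplp0, Rplp1 and Rplp2), together with Rpsa, leaving out rows named as pseudogenes. They were 82 of the 31053 genes in the data, 50 named for the large subunit and 32 for the small subunit. The mRNA of 16 samples was sequenced, from myoblasts and myotubes of WT and of Fam134b KO cells, with 4 samples in each of the 4 groups. Fam134b encodes an ER-phagy receptor, a membrane protein that delivers endoplasmic reticulum to the lysosome. All cells were C2C12 cells grown in DMEM with 10% FBS, and myotubes formed without a change to a differentiation medium. The knockout line was made with a lentiviral CRISPR–Cas9 vector carrying guides against Fam134b and kept under antibiotic selection, and the sources used here do not say whether it is 1 clone. The sample labels describe the 4 samples of a group as biological replicates and name no day, and do not say whether they came from separate cultures, so that p-values measure the spread between these samples, which may be technical.

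The cytosolic ribosome joins a small subunit, which reads the mRNA, to a large subunit, which forms the peptide bond. Most ribosomal proteins are present in a single copy per ribosome, so cells make them in matched amounts, and their mRNAs are among the most abundant of a growing cell. Many of these mRNAs begin with a C followed by a run of pyrimidines, the terminal oligopyrimidine (TOP) motif, through which Larp1 and the mTOR pathway control their translation. A few ribosomal proteins have paralogues; Rpl3l, for example, is known from heart and skeletal muscle, where it takes the place of Rpl3.

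The starts of some of the genes described below are shown first, since TOP mRNAs are defined by these letters. RefSeq start sites (GRCm38.p6) with 250 bases before and 50 after were matched for 62 of the 82 genes. Each line gives 30 bases, beginning 10 bases before the first RefSeq start of the gene, and capitals mark a C followed by at least 4 pyrimidines that begins within 5 bases of that start.
Rps6, chr4:86857348-86857377, minus strand: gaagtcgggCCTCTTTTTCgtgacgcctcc
Rpl35, chr2:39005112-39005141, minus strand: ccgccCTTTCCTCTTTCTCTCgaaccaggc
Rpl28, chr7:4792955-4792984, plus strand: tctcgtgtCTCTCTTTCCgtctccggccgc
Rps24, chr14:24490668-24490697, plus strand: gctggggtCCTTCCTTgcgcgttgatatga
Rpl22l1, chr3:28805498-28805527, plus strand: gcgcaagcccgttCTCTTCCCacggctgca
Rps15, chr10:80292421-80292450, plus strand: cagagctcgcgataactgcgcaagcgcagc
Rpl22, chr4:152325716-152325745, plus strand: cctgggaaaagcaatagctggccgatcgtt
Rpl37, chr15:5116603-5116632, plus strand: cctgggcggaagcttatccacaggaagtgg
The first 5 carry such a run at the listed start and the last 3 have none there. Rpl27, Rpl41, Rpl5 and Rps3, which are also described below and whose starts are not printed, have none at their first RefSeq start either. In the GENCODE M21 annotation Rps15, Rpl22 and Rpl37 begin downstream of the listed start, at 80292453, 152325742 and 5116645. The absence of a run at the first RefSeq start therefore does not show that an mRNA lacks a TOP motif. A C followed by 4 pyrimidines began within 5 bases of the start in 28 of the 62 genes (45.2%), against 18.5% of all 27025 promoters of the same length, and exactly at the start in 19.4% against 2.49%. The letters CGGAAG, searched on both strands and known as the core that ETS factors such as Gabpa bind, stood in 66.1% of the 62 windows of 300 bases and in 17.2% of all. The box GGGCGG, which can overlap CGGAAG by 3 letters, was found in 59.7% against 35.9% of all, AAGATGGCG (the core bound by Yy1) in 6.45% against 1.49%, TATAAA in 9.68% against 14.2%, and CCAAT in 29% against 37.9%, all on either strand. Capitals below mark CGGAAG, or its reverse complement CTTCCG, in 3 of these promoters.
Rps6, chr4:86857440-86857469, minus strand: ttaatctacgccCGGAAGtaacgcccctct
Rpl35, chr2:39005241-39005270, minus strand: aggaaggcaggaCTTCCGggaagcggaggg
Rpl37, chr15:5116579-5116608, plus strand: accaagacccgcCGGAAGtagtttcctggg
These matches describe letters in the windows and not sites shown to be bound.

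Reads counted on genes were 1484750 to 3287461 per sample, and the shallow samples were Fam134b KO myotubes replicates 2 and 4, with 1790524 and 1484750 reads. A count of 3 reads, the smallest taken as detected, corresponds to a normalized count of 2.49 to 5.99, and floors and intervals here cover counting error only. Fam134b itself had a normalized count of 23.4 to 35.6 in knockout myoblasts against 150 to 251 in WT, and of 28.0 to 56.9 in knockout myotubes against 146 to 287 in WT, so its level was lower in every knockout sample than in any WT sample. The summed level of 7 myotube markers was 9.18 to 17.4 in knockout and 859 to 1365 in WT myoblasts, and 8768 to 12206 in knockout and 18330 to 26032 in WT myotubes. For 6 myoblast markers the sums were 311 to 428 against 1040 to 1522 before and 931 to 1272 against 2737 to 3307 after differentiation, and Pax7 was at 0 reads in the knockout samples. Of the 6, 5 exceeded 3 reads in a WT myoblast sample and 6 in a WT myotube sample. Cdh15, Des and Myod1 were called higher on differentiation in both lines, and Myf5 lower in the knockout line. These sums therefore do not mark the myoblast stage here. The proliferation markers Mki67, Top2a, Ccnb1 and Cdk1 summed to 2362 to 4161 against 3049 to 3746 in myoblasts and to 711 to 1201 against 1668 to 2732 in myotubes, knockout first. Sums over 5 adipocyte, 4 osteoblast, 3 endothelial and 3 leukocyte markers reached at most 26.2, 1.73, 1.94 and 11.2 in any sample, with Adipoq, Plin1, Alpl, Ibsp, Cdh5, Ptprc and Adgre1 at 0 reads in all 16. A level in such bulk samples cannot tell fewer cells of a type from less RNA per cell.

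Ribosomal protein genes have many processed pseudogenes, and libraries of this type read the 3' ends of mRNAs. In GENCODE M21 (GRCm38), 69 of the 82 genes share over 20% of the last 500 bases of their coding transcripts, in stretches of 31 bases, with another annotated gene, and the median share was 49.3%. How reads that fit several places were handled is not given in the sources used here, so the counts of these genes may hold only the part of the reads that was unique, or reads of a copy. Levels are therefore compared between samples for each gene and not between genes. Of the 82 genes, 78 reached 10 normalized counts in 4 or more samples and were tested, 46 of the large and 32 of the small subunit. The 4 genes under this limit were Rpl29, Rpl3l, Rpl10l and Rpl39l. Rpl29 had between 0 and 11.6 normalized counts in every sample, and the other 3 are described with the paralogues.

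As a group, the 82 genes held between 6.54% and 13.3% of the reads of a sample. Their share was 8.52%, 9.97%, 9.68% and 9.51% in WT myoblasts and 6.54%, 8.73%, 7.40% and 7.56% in WT myotubes, so the ranges of WT myoblasts and WT myotubes overlapped only through WT myotubes replicate 2. In Fam134b KO myoblasts it was 9.27%, 11.4%, 8.54% and 10.5%. Fam134b KO myotubes divided into replicates 1 and 2 at 8.36% and 8.54% and replicates 3 and 4 at 11.9% and 13.3%. Of the 78 genes tested, 52 were higher in both replicates 3 and 4 than in both replicates 1 and 2 of this group, and 1 was lower in both. Each of these pairs held 1 shallow sample. The share of reads from mitochondrial genes moved the other way in several samples: it was 3.90% and 2.71% in replicates 1 and 2 of Fam134b KO myotubes and 2.47% and 1.46% in replicates 3 and 4. In Fam134b KO myoblasts, replicate 2 had the highest ribosomal protein share of its group and 0.364% mitochondrial reads, and replicate 3 had the lowest and 2.05%. The part of these differences in the results was not tested.

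**Figure D1:**
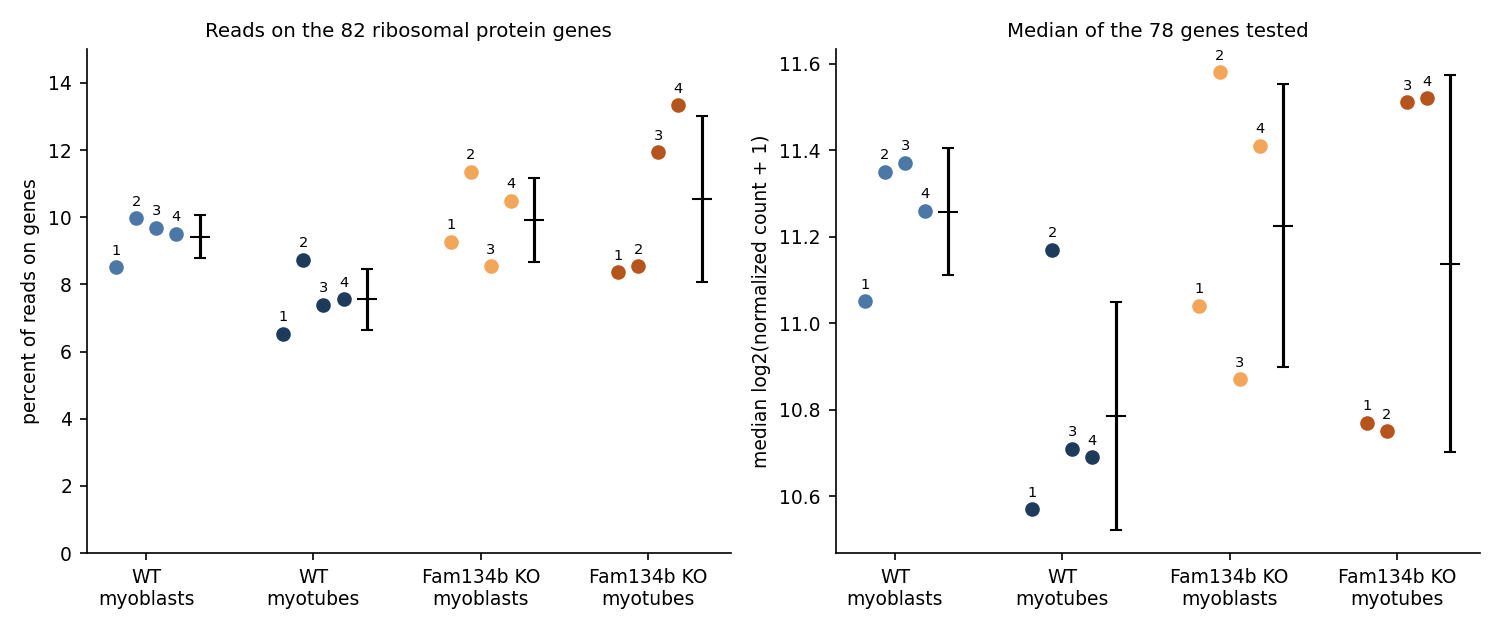
Share of reads on the 82 ribosomal protein genes (left, percent) and the median log2(normalized count + 1) of the 78 genes tested (right) in each sample. Points are samples with their replicate number, and the bar beside each group gives the mean and the SD of 4 samples; Fam134b KO myotubes replicates 3 and 4 sit at 11.9% and 13.3% and replicates 1 and 2 at 8.36% and 8.54%.

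The within-group spread differed accordingly. The median SD of the 78 genes on the log2 scale was 0.19 in WT myoblasts, 0.30 in WT myotubes, 0.40 in Fam134b KO myoblasts and 0.55 in Fam134b KO myotubes. Over all 10767 genes tested it was 0.24, 0.33, 0.27 and 0.43, so the 78 genes varied more than the median gene among the knockout samples and less among the WT samples.

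**Figure D2:**
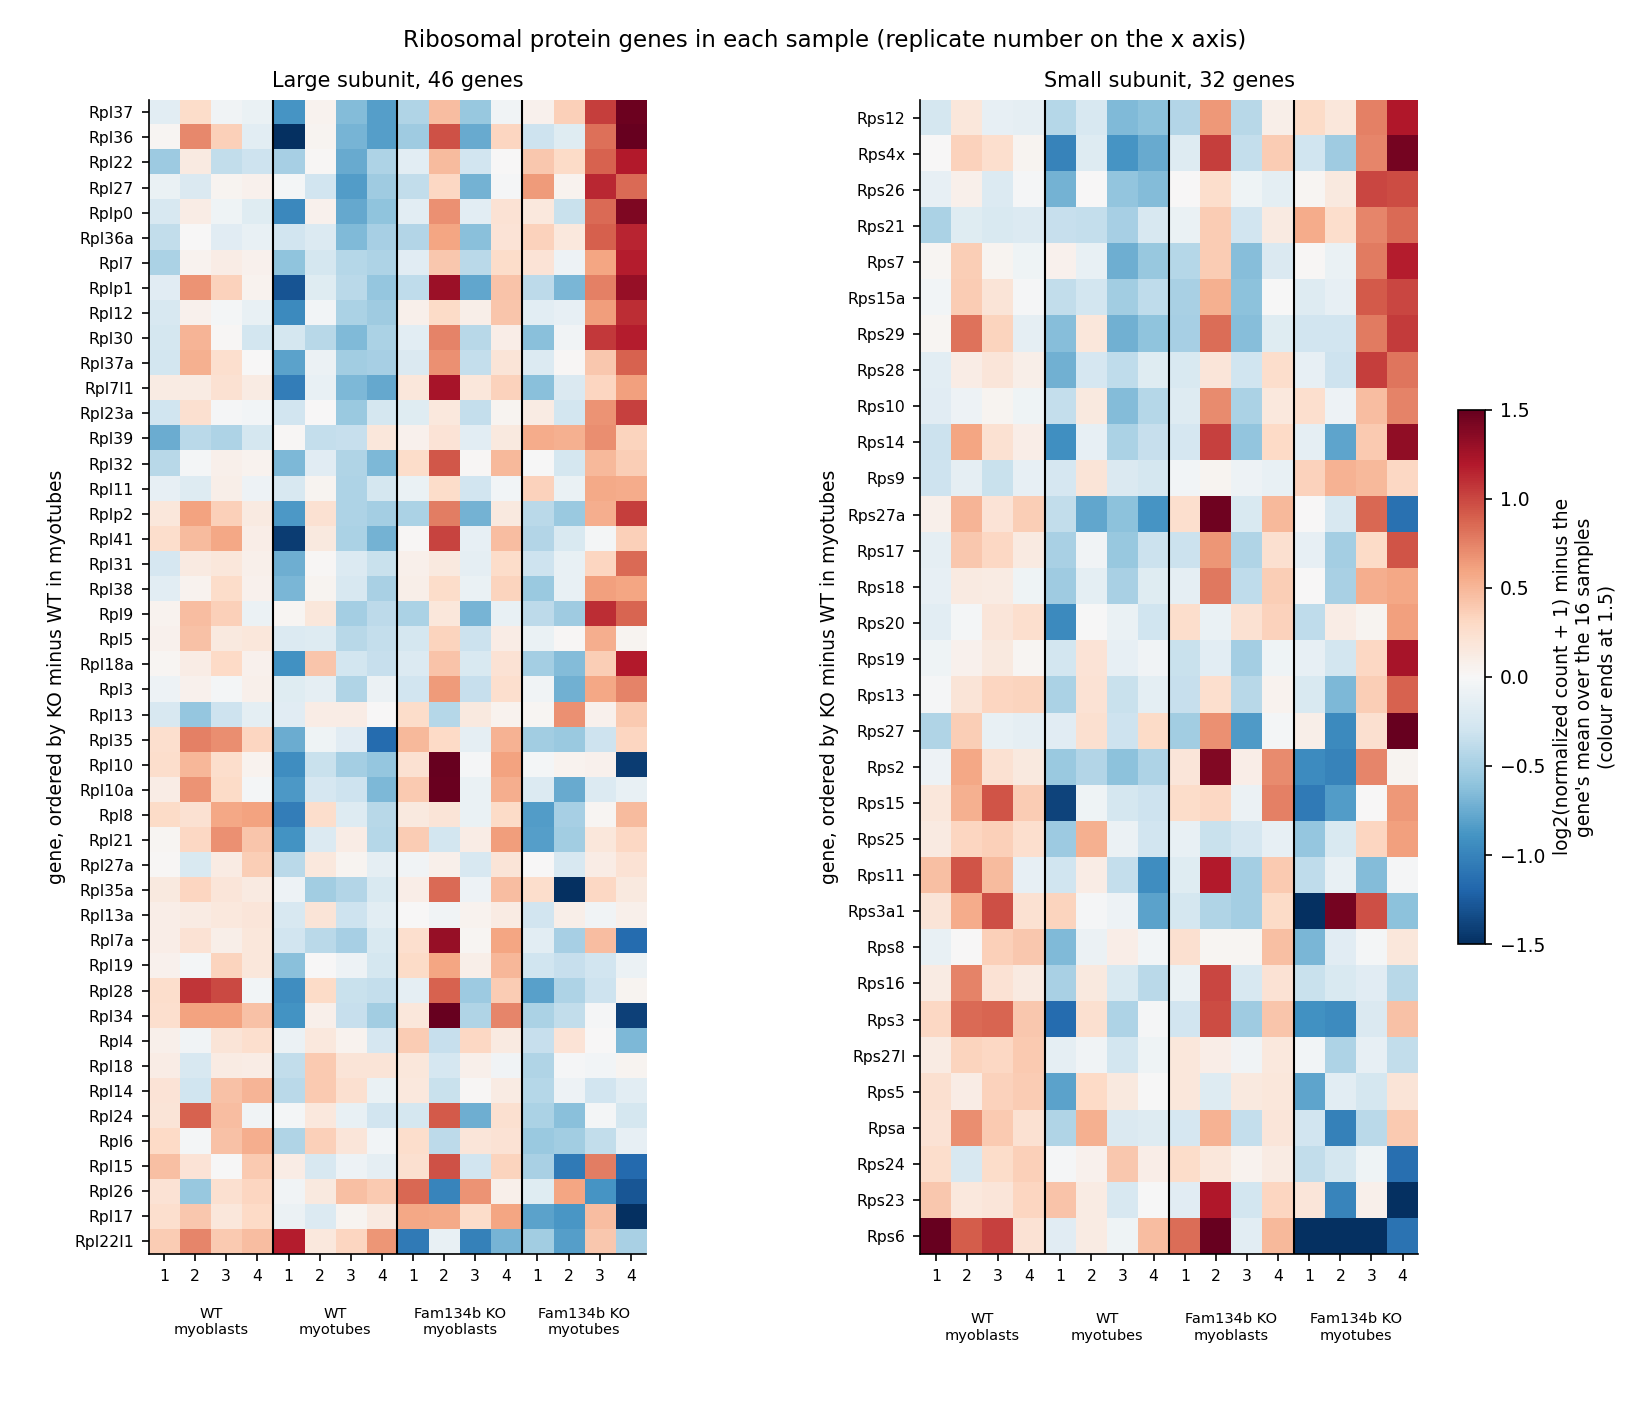
Each ribosomal protein gene tested (rows, ordered by the difference between Fam134b KO and WT myotubes) in each of the 16 samples (columns, by group and replicate), large subunit left and small subunit right. Colour is the log2 level minus the mean of the gene over all samples; WT myotubes are mostly below the mean, Fam134b KO myotubes replicates 3 and 4 mostly above it, and Rps6, at the foot, is low in all 4 knockout myotube samples. The colour scale ends at 1.5 either way.

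On differentiation of WT cells a part of the ribosomal protein genes fell and none passed the test as higher. Of the 78 genes, 71 had a lower mean in WT myotubes, with a median log2 fold change of -0.41, against -0.01 for all genes tested. By limma with Benjamini-Hochberg adjusted p under 0.05, 11 were lower and 0 higher, which is 14.1% lower where 9.16% of all genes were called lower and 13.8% higher. At an unadjusted p under 0.05 there were 23 in either direction. Of the large subunit 7 of 46 and of the small subunit 4 of 32 genes were called lower, with medians of -0.41 and -0.43. In 20 of the 78 genes every WT myotube sample lay below every WT myoblast sample, against 12% of all genes, and in 0 every myotube sample lay above, against 16.1%. The number called was unstable, since leaving out 1 of 9 libraries moved it by over 1.5 times, from 1 without WT myoblasts replicate 3 or WT myotubes replicate 1 to 19 without WT myotubes replicate 2, and it was 29 when only the 8 WT samples were fitted.

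Among the large subunit genes, Rpl35, a protein at the mouth of the peptide exit tunnel, fell most. It had normalized counts of 234, 331, 318 and 245 in WT myoblasts and 117, 187, 174 and 87.2 in WT myotubes, a log2 fold change of -1.04 ± 0.24 (SE, limma adjusted p = 0.0036), and no myotube sample reached a myoblast sample. Rpl41, a very short basic peptide, went from 2723, 3162, 3407 and 2436 to 850, 2514, 1637 and 1396, a log2 fold change of -0.97 ± 0.28 (adjusted p = 0.016); the groups overlapped through WT myotubes replicate 2. Rpl28 fell by 0.91 on the log2 scale (SE 0.30, adjusted p = 0.033), from 357 to 774 normalized counts in WT myoblasts to 193 to 448 in WT myotubes. Rpl5, which carries 5S rRNA and with Rpl11 can bind Mdm2, fell from 389, 507, 412 and 420 to 325, 326, 281 and 290, a small log2 fold change of -0.50 ± 0.17 (adjusted p = 0.043) with no overlap. The remaining large subunit genes called lower were Rpl7l1, Rpl10a and Rpl8, at -0.80, -0.79 and -0.77 on the log2 scale.

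In the small subunit, Rps15, a protein of the decoding region, had 2302, 2953, 3950 and 2663 normalized counts in WT myoblasts and 780, 1954, 1711 and 1656 in WT myotubes, a log2 fold change of -1.01 ± 0.32 (adjusted p = 0.027). Rps3, which lines the channel where mRNA enters, changed by -0.96 ± 0.34 (adjusted p = 0.045), and Rps27a, made as a fusion with ubiquitin, by -0.96 ± 0.33 (adjusted p = 0.039). Rps27a went from 185, 250, 202 and 226 normalized counts to 135, 102, 113 and 94.1. In all 3 genes the WT groups did not overlap. Rps27l, a paralogue of Rps27 known as a p53 target, was the remaining call at -0.42 ± 0.14. The 67 genes that were not called ranged from -0.996 (Rpl36) to 0.34 (Rpl39), and 47 of them were within 0.5 of no change. Proliferation markers moved in the same comparison: Ccnb1 and Cdk1 of the 4 were called lower. The share of mitochondrial reads moved as well, at 1.70%, 1.87%, 1.12% and 0.854% in WT myoblasts and 4.39%, 2.20%, 2.76% and 2.51% in WT myotubes, without overlap. The part of the markers and of these reads in the result was not tested.

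In the knockout line, single ribosomal protein genes changed in both directions on differentiation, and the median of the family lay near 0. The median log2 fold change of the 78 genes from Fam134b KO myoblasts to Fam134b KO myotubes was 0.04, between -0.16 without Fam134b KO myotubes replicate 4 and 0.17 without replicate 1, and 37 genes had a lower mean and 41 a higher one. Among the 10 tested genes whose 3' ends are at most 20% shared, the median was -0.33, with 7 lower and 3 higher. It was 0.09 among the 68 others, with 30 lower and 38 higher. In WT differentiation the same 10 genes had a median of -0.485. By limma, 10 were called lower and 7 higher, 12.8% and 8.97% of the genes where 16.1% and 17.3% of all genes were called, so the calls were less frequent than over all genes tested. Leaving out both shallow libraries gave 4 lower and 2 higher, and leaving out 1 library gave 6 to 13 lower and from 1 higher (without Fam134b KO myoblasts replicate 1 or 3 or Fam134b KO myotubes replicate 3) to 14 higher (without Fam134b KO myotubes replicate 2), with 7 of 16 such fits moving the higher count by over 1.5 times. By subunit, 6 large and 4 small subunit genes were called lower, and 4 large and 3 small higher.

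Rps6, the small subunit protein phosphorylated by S6 kinase, had the lowest log2 fold change of the family, -2.82 ± 0.48 (limma adjusted p = 0.00012). Few reads stood behind it: 21, 70, 10 and 17 in Fam134b KO myoblasts and 2, 1, 1 and 2 in Fam134b KO myotubes. All 4 myotube counts lie under the 3 reads taken as detected, and the gene passed the filter only through the other groups. Replicate 2 gave 70 of the 118 pooled myoblast reads. The fitted value depends on the 1 added to each count. Over the pooled reads the rate in the myotubes was 0.0698 times that in the myoblasts, with an exact 95% interval of 0.0251 to 0.156 for counting error. The last bases of Rps6 (chr4:86854660-86857412, minus strand) are 91.1% shared with 27 other genes, all pseudogenes, and how reads that fit several of them were counted is not given in the sources used here. Rpl17, a protein of the exit tunnel, had 1355, 1350, 1101 and 1364 normalized counts in the myoblasts and 519, 496, 1251 and 258 in the myotubes, a log2 fold change of -1.26 ± 0.28 (adjusted p = 0.0018) in which replicate 3 of the myotubes lay within the myoblast range. Rpl34 (-1.08 ± 0.34), Rpl10 (-0.98 ± 0.33), Rps2 (-0.89 ± 0.31) and Rps23 (-0.88 ± 0.33, kept under 10 of 27 alternative settings) were called lower as well, each with overlap between the groups, and in Rpl10 and Rpl34 Fam134b KO myoblasts replicate 2 was the highest sample and Fam134b KO myotubes replicate 4 the lowest. Rps24 fell by 0.61 on the log2 scale (SE 0.21) with no overlap, from 5881, 5462, 5035 and 5264 to 3746, 4038, 4649 and 2208. Rpl10a, Rpl7a and Rpl19 completed the list at -0.90, -0.88 and -0.62.

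The genes that rose were Rpl37, Rpl27, Rpl36a and Rpl22 of the large subunit and Rps7, Rps21 and Rps9 of the small subunit. Rpl37 went from 2428, 4571, 2244 and 3205 normalized counts to 3469, 4258, 6822 and 9188, a log2 fold change of 0.88 ± 0.28 (adjusted p = 0.020), and Rpl27 from 1176, 1889, 932 and 1511 to 2375, 1585, 3332 and 2756, a log2 fold change of 0.87 ± 0.23 (adjusted p = 0.0067). In both, replicate 2 was the highest myoblast sample and lay above the lowest myotube samples. Rpl36a changed by 0.70 ± 0.24, Rpl22 by 0.68 ± 0.23, Rps7 by 0.69 ± 0.26 (kept under 11 of 27 alternative settings) and Rps21 by 0.57 ± 0.19. Rps9 rose by the least, 0.46 ± 0.16, from 4703 to 5229 normalized counts to 6304 to 7286, and was the only called gene in this direction whose groups did not overlap. The 4 proliferation markers were all called lower in this comparison.

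Set side by side, the differentiation changes of the genotypes, which share no sample, had the same sign for part of the family. Of the 78 genes, 35 were lower in both, 36 were lower in WT and higher in the knockout line, 5 were higher in both and 2 were higher in WT and lower in the knockout line. Across the 78 genes, which are not independent of each other, Pearson's r of the log2 fold changes was 0.356 and Spearman's rho 0.340. Rpl10a was the gene called lower in both, 1 of the 11 WT and of the 10 knockout calls. Rpl10, Rpl34 and Rps2 were called in the knockout line at -0.98, -1.08 and -0.89 and had -0.86, -0.90 and -0.74 in WT, where they were not called (adjusted p = 0.060, 0.063 and 0.089).

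**Figure D3:**
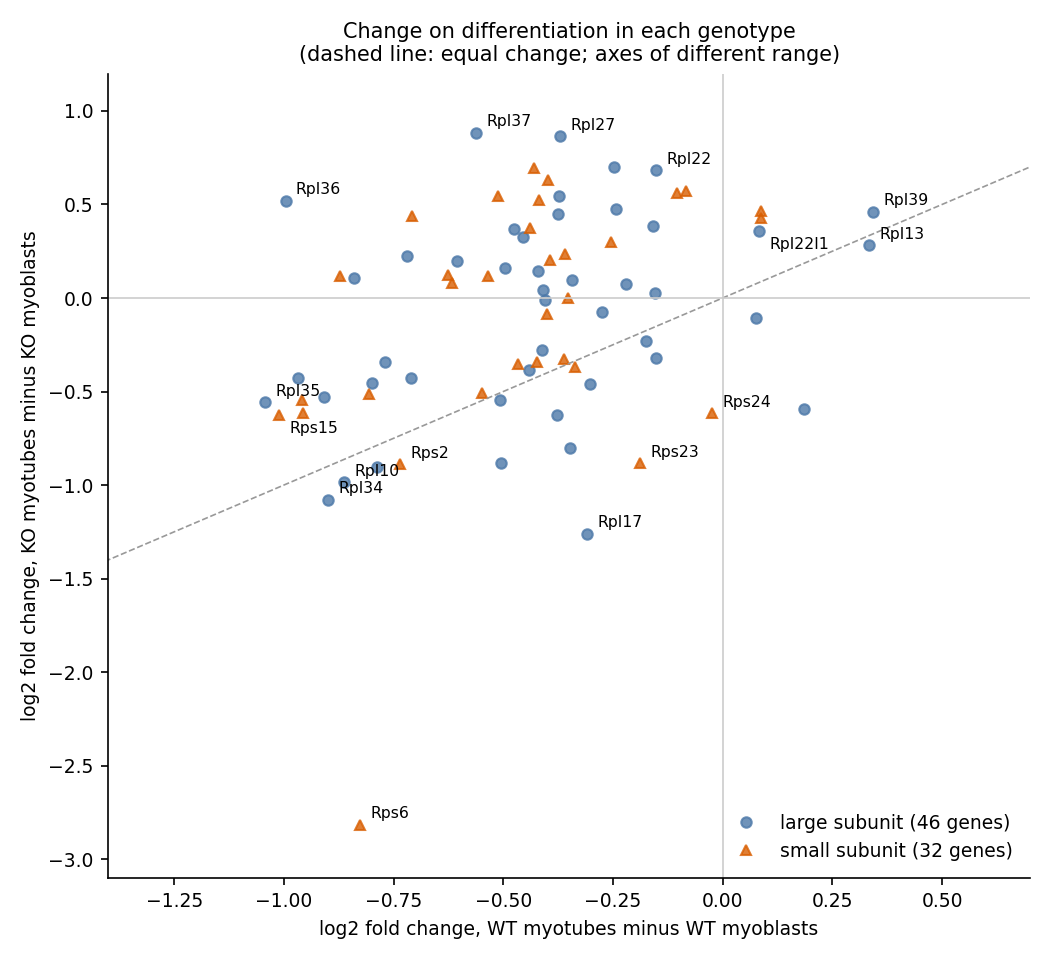
Log2 fold change on differentiation of each of the 78 genes in WT (x axis) and in the knockout line (y axis), circles for the large and triangles for the small subunit, with equal change along the dashed line and axes of different range. Most points lie left of 0 on the x axis and on both sides of 0 on the y axis; Rps6 is at -2.82 and Rpl17 at -1.26 in the knockout line.

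Between Fam134b KO and WT myoblasts the ribosomal protein genes differed little. The median log2 fold change was -0.02, 1 of the 78 genes was called lower and 0 were called higher, where 8.5% and 7.26% of all genes were called. At an unadjusted p under 0.05 there were 3. Of the 77 genes not called, 74 were within 0.5 of no change, with a median SE of 0.26, and the extremes were Rps3a1 at -0.72 and Rpl39 at 0.54 ± 0.19 (adjusted p = 0.054). The called gene was Rpl22l1, the paralogue of Rpl22, with 542, 691, 545 and 574 normalized counts in WT and 199, 385, 206 and 255 in knockout myoblasts, a log2 fold change of -1.21 ± 0.25 (limma adjusted p = 0.0016) with no overlap. The call was kept under all 27 alternative settings, with adjusted p from 2.33e-07 to 0.00939. All 7 myotube markers were called lower in knockout than in WT myoblasts, with a median log2 fold change of -5.48. The part of this difference in the result was not tested.

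In myotubes a part of the family had higher levels in the knockout line. Of the 78 genes, 20 were called higher and 3 lower in Fam134b KO than in WT myotubes, 25.6% and 3.85%, where 9.74% of all genes were called higher and 13.7% lower. The median log2 fold change was 0.35, against -0.07 for all genes tested, and the subunits had medians of 0.36 (large, 12 of 46 called higher) and 0.31 (small, 8 of 32). By sample, the median log2 level of the 78 genes was 10.77, 10.75, 11.51 and 11.52 in knockout and 10.57, 11.17, 10.71 and 10.69 in WT myotubes, so knockout replicates 1 and 2 lay inside the WT range and replicates 3 and 4 above it. Leaving out 1 library gave a median fold change from 0.23 (without WT myotubes replicate 1) to 0.53 (without Fam134b KO myotubes replicate 2). In 12 genes every knockout sample lay above every WT sample, against 8.52% of all genes, and in 2 every knockout sample lay below, against 10.8%. The number called higher ranged from 10 without WT myotubes replicate 3 to 29 without Fam134b KO myotubes replicate 2, and was 11 when only the 8 myotube samples were fitted. Among the 10 tested genes whose 3' ends are at most 20% shared, the median was 0.12 and 2 were called higher, Rpl37 and Rpl12. The 7 myotube markers summed to a lower level in knockout than in WT myotubes in all samples, 4 of them called lower, as were 3 of the 4 proliferation markers; the part of these in the result was not tested.

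Rpl37 (chr15:5116645-5119140, plus strand), a zinc-binding protein of the large subunit whose 3' end is 1.70% shared, had 1803, 3451, 2110 and 1876 normalized counts in WT and 3469, 4258, 6822 and 9188 in knockout myotubes. Its log2 fold change was 1.31 ± 0.28 (limma adjusted p = 0.0019), and the lowest knockout sample stood just above the highest WT sample. Rpl22, a large subunit protein that also binds other RNAs, had 2156, 3077, 1799 and 2207 in WT and 4036, 3706, 5620 and 6958 in knockout myotubes, a log2 fold change of 1.12 ± 0.23 (adjusted p = 0.0012). Rpl27 had 1492, 1252, 850 and 1050 against 2375, 1585, 3332 and 2756, a log2 fold change of 1.09 ± 0.23 (adjusted p = 0.0017). In these 3 genes no WT sample reached a knockout sample, and the calls were kept when any sample was left out.

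Rpl36 had the second highest value, 1.28 ± 0.41 (adjusted p = 0.027), with 130, 389, 232 and 213 normalized counts in WT and 305, 333, 670 and 1283 in knockout myotubes, and the groups overlapped. Rplp0, the base of the P stalk that recruits translation factors, had 2363, 4824, 2717 and 3041 against 5153, 3655, 8323 and 12187, a log2 fold change of 1.09 ± 0.30 (adjusted p = 0.012), with knockout replicate 2 inside the WT range. Rpl36a (1.05 ± 0.24), Rpl7 (0.91 ± 0.24), Rpl12 (0.86), Rpl37a (0.75), Rpl39 (0.66 ± 0.19), Rpl32 (0.64) and Rpl11 (0.58 ± 0.19) were the other large subunit genes called higher. The 33 large subunit genes not called ranged from -0.73 (Rpl17) to 0.86 (Rplp1).

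Of the small subunit, Rps12 had 5020, 5711, 4256 and 4390 normalized counts in WT and 8216, 7556, 11338 and 15506 in knockout myotubes, a log2 fold change of 1.09 ± 0.25 (adjusted p = 0.0036) with no overlap. Rps26, which touches the mRNA near the exit side of its channel, had 3200, 5285, 3485 and 3358 against 5358, 5809, 10527 and 10319, a log2 fold change of 1.02 ± 0.23 (adjusted p = 0.0027), again with no overlap. Rps4x, the X-linked form of Rps4, was higher by 1.04 ± 0.34 (adjusted p = 0.031) with overlapping groups. Rps21 had 5558, 5519, 5000 and 6013 against 10440, 8510, 11799 and 12785, a log2 fold change of 0.97 ± 0.19 (adjusted p = 0.0011), and no WT sample reached a knockout sample. Rps7 (0.81 ± 0.26), Rps15a (0.78), Rps28 (0.73) and Rps9 (0.55 ± 0.16) were also called higher. The division of the knockout myotubes carried into most of these genes: replicates 3 and 4 were the higher pair for Rps12, Rps26, Rps4x, Rps21 and Rps7, and for Rps9 they were not.

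The 3 genes lower in knockout myotubes were Rps6, Rpl22l1 and Rps24. For Rps6 every knockout myotube count lies under the 3 reads taken as detected, and the gene passed the filter only through the other groups. Its fitted value and p-value here depend on the 1 added to each count, and its interval covers counting error only. Rps6 had 10, 12, 10 and 14 reads in WT and 2, 1, 1 and 2 reads in knockout myotubes, a log2 fold change of -2.0 ± 0.48 (limma adjusted p = 0.0044) and a ratio of rates over pooled reads of 0.172 (exact 95% interval 0.06 to 0.403). Rpl22l1 had 941, 461, 520 and 655 normalized counts against 289, 233, 550 and 296, a log2 fold change of -0.94 ± 0.25 (adjusted p = 0.011), with overlap through knockout replicate 3, and without both shallow knockout libraries it was not called (adjusted p = 0.128). Rps24 changed by -0.60 ± 0.21 (adjusted p = 0.047), with no overlap between 4788 to 6426 in WT and 2208 to 4649 in knockout myotubes; this call was kept under 10 of 27 alternative settings.

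**Figure D4:**
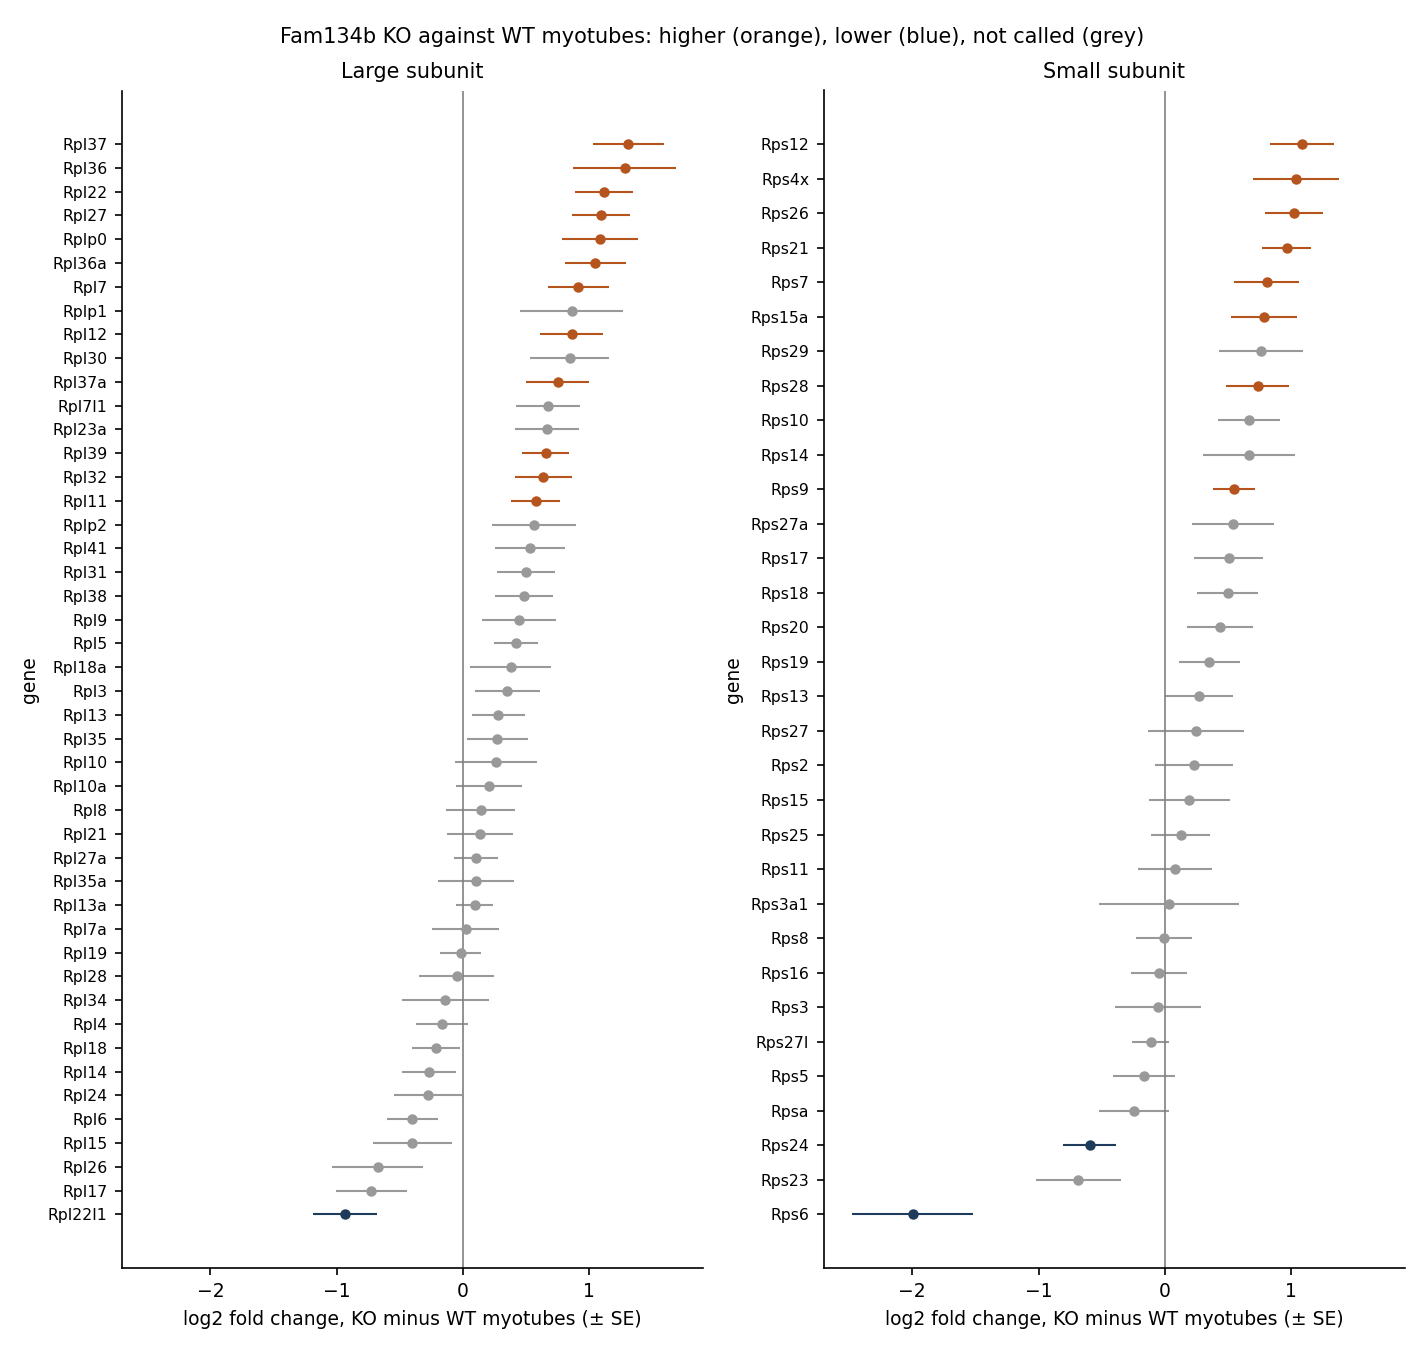
Log2 fold change between Fam134b KO and WT myotubes of every ribosomal protein gene tested, large subunit left and small subunit right, with bars for the SE of the fit. Orange points are genes called higher (20), blue points genes called lower (3) and grey points genes not called (55); the range runs from -2.0 (Rps6) to 1.31 (Rpl37).

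The difference between the differentiation changes of the genotypes was tested as an interaction. Of the 78 genes, 2 passed, both higher and of the large subunit, where 3.45% of all genes were called, 1.97% higher and 1.48% lower. Rpl37 changed on differentiation by -0.56 ± 0.28 in WT and by 0.88 ± 0.28 in the knockout line, an interaction of 1.45 ± 0.40 (limma adjusted p = 0.048). For Rpl27 the changes were -0.37 ± 0.23 and 0.87 ± 0.23, an interaction of 1.24 ± 0.33 (adjusted p = 0.039). At an unadjusted p under 0.05 there were 18, and the median over the 78 genes was 0.38. Both calls were close to the threshold: that of Rpl27 was kept in 5 and that of Rpl37 in 4 of the 16 fits that left out a sample. The 7 myotube markers were all called higher in the interaction, with a median of 4.16, and the part of this in the result was not tested.

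To see which genes departed from the family, each sample was centred on the median of the 78 genes and the fit repeated, so that a value is the change of a gene relative to the family. The median of all genes tested on this scale was 0.46 in WT and 0.07 in knockout differentiation. It was 0.02 between the myoblasts and -0.42 between the myotubes. The shares of all genes called below thus include the shift of the family itself and are no baseline for its members. On differentiation of WT cells 2 of the 78 genes departed, both higher than the family, where 21.9% of all genes were called on this scale, 1.09% lower and 20.8% higher. They were Rpl39, a small protein of the exit tunnel, at 0.81 ± 0.24 (limma adjusted p = 0.020) and Rpl13 at 0.81 ± 0.28 (adjusted p = 0.046). Rpl39 had 3582 to 4986 normalized counts in WT myoblasts against 4688 to 6738 in WT myotubes, and Rpl13 5563 to 7506 against 7396 to 8934, so the ranges of both genes overlapped between the stages. Leaving out 1 library gave from 0 departing genes (without WT myoblasts replicate 3 or WT myotubes replicate 1 or 4) to 5 (without WT myotubes replicate 2), and 8 of 16 such fits moved the count by over 1.5 times. On differentiation of the knockout line 18 departed, 5 lower and 13 higher, where 20.1% of all genes were called, 8.16% lower and 11.9% higher. Rps6 (-2.73 ± 0.49), Rpl37 (0.97 ± 0.19), Rpl27 (0.96 ± 0.21) and Rpl22 (0.77 ± 0.18) had the smallest p-values. The Rps6 value, here and between the myotubes, rests on knockout myotube counts under the 3 reads taken as detected. Between the myoblasts Rpl22l1 alone departed (-1.18 ± 0.27), where 8.31% of all genes were called, 4.92% lower and 3.39% higher. Between the myotubes 19 did, 7 lower and 12 higher, where 21.1% of all genes were called, 18.5% lower and 2.69% higher. Rpl37 (0.96 ± 0.19, adjusted p = 0.00093), Rps6 (-2.35 ± 0.49), Rpl22l1 (-1.29 ± 0.27) and Rpl22 (0.77 ± 0.18) led that list. In the interaction Rpl37 was the only call of the 78 (1.06 ± 0.26, adjusted p = 0.045), where 1.35% of all genes were called. Without both shallow knockout libraries the myotube count was 7 and the count on differentiation of the knockout line 6.

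Paralogues were compared as the share of a pair's reads, which follows the pair between samples and is no ratio of molecules, since the genes differ in their 3' ends. Rpl22l1 took 20.6%, 17.2%, 18.8% and 18.9% of the reads of Rpl22 and Rpl22l1 in WT myoblasts and 30.4%, 13%, 22.4% and 22.9% in WT myotubes. In the knockout line it took 6.77%, 8.36%, 7.63% and 7.73% in myoblasts and 6.67%, 5.93%, 8.91% and 4.08% in myotubes. At both stages no knockout sample reached a WT sample. The difference was 11.3 percentage points in myoblasts and 15.8 in myotubes (exact two-sided permutation test, n = 4 per group, p = 0.0286 each, the smallest this design allows, and 0.0914 adjusted over 16 tests of 4 pairs in 4 comparisons). On differentiation the share moved by 3.30 points in WT (exact permutation p = 0.514, n = 4 per group) and by -1.23 in the knockout line (p = 0.314). In myotubes Rpl22 was called higher and Rpl22l1 lower in the knockout line, and in myoblasts Rpl22 had a log2 fold change of 0.28 ± 0.23 and was not called. The 3' end of Rpl22l1 is 66.1% shared with 5 genes and that of Rpl22 21.8%.

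**Figure D5:**
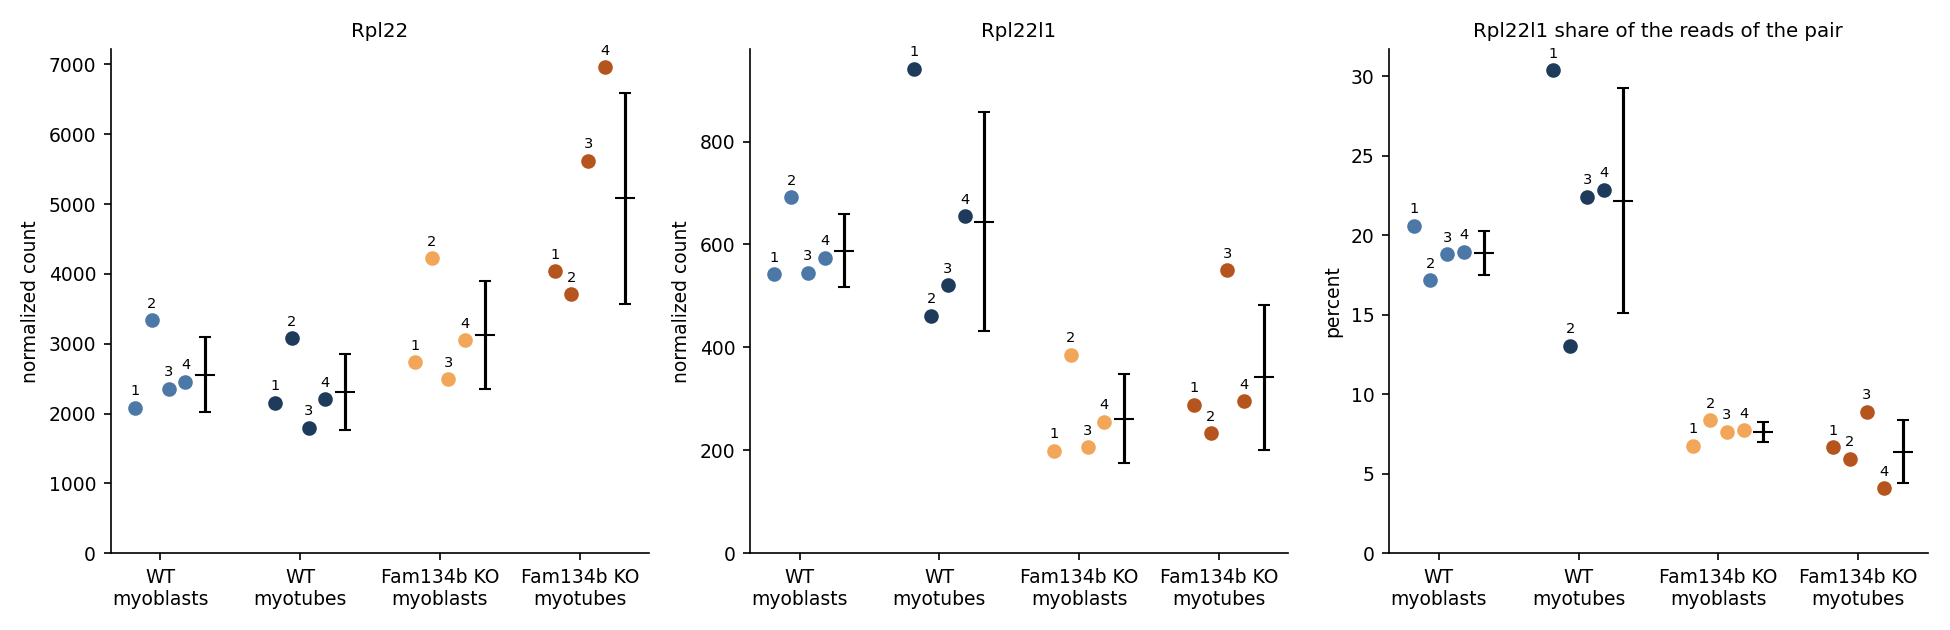
Normalized counts of Rpl22 (left) and its paralogue Rpl22l1 (middle) and the share of Rpl22l1 in the reads of the pair (right, percent) in each sample. Points are samples with their replicate number and bars the mean and SD of 4 samples; the share is 4.08% to 8.91% in the knockout samples and 13% to 30.4% in the WT samples.

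Rpl3l, the muscle paralogue of Rpl3, was nearly absent. It had 0 reads in the 8 myoblast samples, 3 reads in all 4 WT myotube samples together and 5 in all 4 Fam134b KO myotube samples, at most 3 in a sample, while Rpl3 had 1288 to 1652 normalized counts in WT myotubes and 1068 to 2949 in knockout myotubes. Rpl3 was not called in any comparison, with log2 fold changes from -0.22 to 0.35. Rpl10l and Rpl39l, known from the testis, had 0 reads in all 16 samples, which allows up to 3 reads in each. Rps27l took 35.5% ± 4.21 (SD, n = 4) of the reads it shares with Rps27 in WT myoblasts and 27.9% ± 2.88 in WT myotubes, and 34.4% ± 9.29 and 25% ± 11.5 in the knockout line, with no exact permutation p under 0.0857 (n = 4 per group), and Rps27 was not called in any comparison. In Fam134b KO myotubes the Rps27 level was 3775, 1830, 4174 and 10908 normalized counts, with replicate 4 far above the others. Rpl7l1, a relative of Rpl7 that acts in ribosome assembly, took 18.2% ± 2.80 and 14.2% ± 2.19 of the reads of that pair in WT myoblasts and myotubes and 20.9% ± 3.73 and 12.4% ± 2.31 in the knockout line. For Rpl36al, the autosomal relative of the X-linked Rpl36a, the share was 38.6% ± 2.92, 48.7% ± 3.78, 34.9% ± 10.3 and 29.0% ± 6.41 in the same order, WT first and myoblasts before myotubes. The share of Rpl36al was higher in WT myotubes than in WT myoblasts by 10.1 points and lower in knockout than in WT myotubes by 19.6 points, and that of Rpl7l1 fell by 8.5 points on differentiation of the knockout line; these 3 groupings did not overlap (exact permutation p = 0.0286 each, n = 4 per group, adjusted p = 0.0914).

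By place in the ribosome, the calls were these, to be read beside the shares of all genes called. Those shares were 13.8% higher and 9.16% lower in WT differentiation and 17.3% and 16.1% in knockout differentiation. Between the myotubes they were 9.74% and 13.7%. In groups this small no difference from these shares was tested. The 3 P stalk genes had a median log2 fold change of -0.72 in WT differentiation with 0 called, and of 0.86 between the myotubes with Rplp0 called; Rplp1 (0.86 ± 0.41) and Rplp2 (0.56 ± 0.33) were not. Of 8 listed genes of the peptide exit tunnel, Rpl35 was called lower in WT differentiation and Rpl17 and Rpl19 lower in knockout differentiation. Between the myotubes Rpl39 was called higher. Of 5 listed genes of mRNA entry and decoding, Rps3 and Rps15 were called lower in WT differentiation. In knockout differentiation Rps2 and Rps23 were called lower and Rps9 higher, and between the myotubes Rps9 was called higher. A fixed list held 9 of the genes mutated in Diamond-Blackfan anaemia, and others of that disease were not counted. Of these 9, Rpl5 was called lower in WT differentiation, and Rps24 lower and Rps7 higher in knockout differentiation. Between the myotubes Rpl11, Rps26 and Rps7 were called higher and Rps24 lower. Rpsa, the laminin receptor precursor and a small subunit protein, was not called in any comparison and lay below the family between the myotubes, by 0.60 ± 0.20 relative to it (limma adjusted p = 0.041).

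Genes with and without the pyrimidine start at the first RefSeq start are set side by side here as counts. A gene without it there may still have such a run at another start. In WT differentiation, where 9.16% of all genes were called lower, 3 of the 28 genes with such a start and 6 of the 31 without that were tested were called lower, with medians of -0.35 and -0.44. In knockout differentiation (16.1% of all genes lower, 17.3% higher) 7 and 2 were called lower and 2 and 5 higher, with medians of -0.04 and 0.16, and between the myotubes (9.74% higher, 13.7% lower) 6 and 11 were called higher and 3 and 0 lower, with medians of 0.17 and 0.35. For the 40 genes with CGGAAG and the 19 without, the medians were -0.422 and -0.274 in WT differentiation, 0.0151 and 0.115 in knockout differentiation and 0.265 and 0.28 between the myotubes.

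Other genes of the translation machinery were counted from lists, to be read beside the shares of all genes called, 13.8% higher and 9.16% lower in WT differentiation, 17.3% and 16.1% in knockout differentiation, 7.26% and 8.5% between the myoblasts and 9.74% and 13.7% between the myotubes. Among ribosomal protein genes that the symbol rule does not reach, Fau, the fusion that yields a small subunit protein, was called lower in WT differentiation (-1.03 ± 0.25, limma adjusted p = 0.0055), and Gnb2l1, which encodes the small subunit protein Rack1, was called higher in knockout differentiation (0.61 ± 0.20) and between the myotubes (0.60 ± 0.20). Rpl36al was not called in any comparison. Of 16 other mRNAs known to begin with a TOP motif, 4 were called lower in WT differentiation (Npm1, Nap1l1, Pabpc1 and Ybx1), and 5 were called higher (Npm1, Nap1l1, Btf3, Eif3e and Gnb2l1) and 1 lower (Hnrnpa1) between the myotubes; their median was -0.16 in the first and 0.33 in the second comparison. In knockout differentiation 3 of the 16 were called higher (Eif3f, Gnb2l1 and Tpt1) and 3 lower (Hnrnpa1, Npm1 and Ybx1), with a median of 0.08, and between the myoblasts 1 was called higher (Eif3e). Npm1, a nucleolar chaperone, fell by 0.86 on the log2 scale in WT differentiation and by 0.46 in the knockout line. Of 9 tested genes on a list of elongation factors and related genes, Eef1d was called lower in WT differentiation. Eef1e1 was called lower in knockout differentiation and between the myotubes. Of 20 regulators tested, 1 was called higher and 3 lower in WT differentiation, 0 and 4 in knockout differentiation, 1 and 1 between the myoblasts and 0 and 3 between the myotubes; Rps6kb2, an S6 kinase, was lower in knockout than in WT myotubes by 1.0 on the log2 scale (SE 0.18, adjusted p = 0.00035), and Mtor, Rptor and Larp1 were not called there. Of 9 chaperones of single ribosomal proteins, Grwd1, the chaperone of Rpl3, was called lower in WT differentiation (-0.96 ± 0.23) and in knockout myoblasts (-0.999 ± 0.23), and Bccip and Heatr3 were called lower and Nap1l1 higher in knockout myotubes.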

How the data were processed

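Each of 4 groups, WT or Fam134b KO and myoblast or myotube, had 4 samples of C2C12 RNA, sequenced single-end with a digital mRNA service. The authors trimmed reads with bbduk, removed rRNA and phiX reads, aligned them with STAR 2.6.0a (mm10, per the submitters' processing notes) and counted them with HTSeq; annotation release and normalization tool are not given in the sources used here. The deposited values are log2 of a normalized count plus 1, and not the linear counts the design had assumed. The inverse is a whole multiple of 1 step per sample (within 0.1) for 100% of values, which gave the reads (1484750 to 3287461 per sample), used for depth and floors only. Samples of the same replicate number showed little correlation across groups (mean r 0.0330 for the same number, -0.0108 for others), which does not exclude pairing.

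Genes reaching 10 normalized counts in 4 or more of the 16 samples, 10767 in all, were fitted with limma 3.58.1 (eBayes with trend, R 4.3.3) and 4 group means, with Benjamini-Hochberg adjustment over all of them at 0.05. Tested on simulated data for WT differentiation, 75.5% of changed genes were called and 6.79% of calls were unchanged genes. Whether these rates hold for the measured samples, whose spread differed between groups, was not tested. Members and lists were chosen with earlier results of these data known. Genes described in full were those with the 3 largest changes each way per subunit and comparison, interaction calls, leading departures from the family, and fixed paralogues and landmarks; other called genes are listed by value. Sequences are RefSeq, GRCm38.p6. Alternatives were other pseudocounts, filters, scalings, a replicate block, 8 samples only, sample weights, each sample left out, genes with little shared 3' sequence and, chosen after seeing the data, 2 shallow libraries left out.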

Additional observations from a re-analysis of the deposited data

Results flagged for a closer look

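In 9 of 156 groups of 4 samples checked for the family median and the named genes, 1 sample lay far from the other 3 by its gap over the range; chance gives about 1 in 20. The far sample was the lowest of its group for Rpl10 in Fam134b KO myotubes replicate 4 (91.9 normalized counts), Rpl17 in Fam134b KO myoblasts replicate 3 (1101), Rpl7 and Rps21 in WT myoblasts replicate 1 (2354 and 5084) and Rps24 in WT myoblasts replicate 2 (4104). It was the highest for Rpl7l1 in WT myoblasts replicate 3 (733) and in Fam134b KO myoblasts replicate 2 (1474), and for Rps26 and Rps9 in WT myotubes replicate 2 (5285 and 5805).

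Rpl27 and Rpl37, 2 genes, changed differently on differentiation in the genotypes by the interaction test, with values of 1.24 and 1.45 on the log2 scale.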

How the results depend on the processing

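Of 502 recomputed family results, 392 stayed within 1.5 times of the reported count or within 1 SD of the reported median. This SD was that of the family median between replicates, 0.213 in WT and 0.385 in knockout differentiation. Between the myoblasts it was 0.253 and between the myotubes 0.36. No median moved beyond this limit, but it was wide, since the median of 0.35 between the myotubes could reach 0 within it. Medians near 0 took either sign when 1 sample was left out. They ran from -0.16 to 0.17 in knockout differentiation and from -0.14 to 0.08 between the myoblasts. Among genes with at most 20% of the transcript end shared, the median in knockout differentiation was -0.33. Of 44 calls of single named genes, 14 held under every alternative and none turned direction. Causes were not tested, except that fewer samples or genes were used where so named. Few reads limit the Rps6 values, with 1 or 2 reads in each knockout myotube sample. Genes called are given as counts, first in WT differentiation, where 11 were lower, 0 higher and 2 departed from the family. With no filter on low genes these became 6 lower and 1 departing; with only the 8 samples compared, 29 lower and 7 departing; with sample weights, 44 lower, 1 higher and 22 departing. Without the 2 shallow libraries 19 were lower, and among genes with at most 20% of the transcript end shared 3 were lower and 0 departed.

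In knockout differentiation (10 lower, 7 higher, 18 departing) no filter gave 2 higher and 11 departing; 8 samples, 4 lower, 1 higher and 7 departing; sample weights, 19 higher and 36 departing; no shallow libraries, 4 lower, 2 higher and 6 departing; little shared sequence, 0 lower, 1 higher and 1 departing. Between the myoblasts (1 lower, 0 higher, 1 departing) 8 samples gave 2 lower, 1 higher and 2 departing; sample weights, 13 lower, 2 higher and 31 departing; no shallow libraries, 1 higher and 2 departing; little shared sequence, 0 lower and 0 departing. A minimum of 50 counts or quantile normalization gave 1 higher and 2 departing there, scaling to the total, with or without ribosomal protein genes, 1 higher, and a pseudocount of 0.5 gave 2 departing. Between the myotubes (3 lower, 20 higher, 19 departing) 8 samples gave 11 higher and 4 departing; no shallow libraries, 1 lower and 7 departing; little shared sequence, 0 lower, 2 higher and 2 departing. The interaction (0 lower, 2 higher) had 1 higher with a pseudocount of 0.5, 0 with no filter, 2 lower and 22 higher with sample weights, and 1 higher without the shallow libraries or with little shared sequence; it could not be fitted with 8 samples.

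Leaving out each sample in turn gave 1 to 19 lower, 0 to 0 higher and 0 to 5 departing in WT differentiation. The lower count was 1 without WT myoblasts replicate 3 or WT myotubes replicate 1, 2 without WT myoblasts replicate 2, 3, 5 and 19 without WT myotubes replicates 4, 3 and 2, 6 without WT myoblasts replicate 4, and 17 without Fam134b KO myoblasts replicate 2 or Fam134b KO myotubes replicate 4. The departing count was 0 without WT myoblasts replicate 3 or WT myotubes replicate 1 or 4, 5 without WT myotubes replicate 2, and 1 without WT myoblasts replicate 2 or 4, WT myotubes replicate 3 or Fam134b KO myoblasts replicate 4. In knockout differentiation the ranges were 6 to 13 lower, 1 to 14 higher and 12 to 23 departing: 6 lower without Fam134b KO myoblasts replicate 2 or 4, 1 higher without Fam134b KO myoblasts replicate 1 or 3 or Fam134b KO myotubes replicate 3, 3 and 4 higher without Fam134b KO myotubes or myoblasts replicate 4, and 11 and 14 without Fam134b KO myotubes replicates 1 and 2. Between the myoblasts they were 1 to 1 lower, 0 to 1 higher (1 without WT myotubes replicate 1 or 2 or Fam134b KO myotubes replicate 4) and 1 to 2 departing (2 without Fam134b KO myotubes replicate 1, 2 or 3). Between the myotubes they were 2 to 5 lower (5 without Fam134b KO myotubes replicate 3), 10 to 29 higher (10 without WT myotubes replicate 3, 12 without WT myotubes replicate 1 or 4 or Fam134b KO myotubes replicate 3 or 4) and 8 to 22 departing (8 without WT myotubes replicate 3, 10 without WT myotubes or Fam134b KO myotubes replicate 4). The interaction had 0 to 1 lower (1 without Fam134b KO myotubes replicate 3) and 0 to 6 higher, 6 without Fam134b KO myoblasts replicate 2, 1 without WT myotubes replicate 1, 2 without WT myotubes replicate 2 or Fam134b KO myotubes replicate 1, 3 without Fam134b KO myotubes replicate 2, and 0 without any other sample.

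Replicate numbers did not pair the samples, and 7 of 16 samples correlated best with one of their own number. With the replicate number as a block, 16 genes were lower and 1 departed in WT differentiation, 10 were lower and 6 higher in knockout differentiation, 1 was lower between the myoblasts, 2 were lower and 20 higher between the myotubes, and 1 was higher in the interaction.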
